A study of Mus musculus with 9 samples.

Results

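The early transcript response of mouse primary macrophages to low oxygen was described from 3 libraries of acute hypoxia and 3 libraries of standard oxygen, which are 6 of the 9 samples of the series. The genes described are the 10987 of 34866 listed genes with a mean of at least 1 TPM over these 6 libraries. TPM, the usual length-corrected transcript unit, gives the share of a gene among the transcripts of a library. Cells of the standard oxygen group were cultured for 7 days in standard oxygen, and those of the acute hypoxia group were moved from standard oxygen to 1% oxygen for the last 3 hours. Both groups were grown in vitro in alpha-MEM with serum and L929-conditioned medium, which feeds macrophages with the growth factor secreted by that fibroblast line. The labels name no genotype, strain, age or tissue of origin and no other agent, and the series text calls the 3 samples of each group biological replicates.

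Cells sense oxygen through prolyl hydroxylases of the EGLN family, which mark the alpha subunits of hypoxia-inducible factors (HIF) for capture by the von Hippel-Lindau protein and for degradation. When oxygen falls, the alpha subunits persist, pair with ARNT and bind a short DNA core, ACGTG or GCGTG, near genes of glucose uptake, glycolysis, mitophagy and vessel growth. Macrophages often work in poorly oxygenated tissue, where they take up dying cells (efferocytosis) and secrete chemokines, and HIF signalling is a known regulator of their metabolism.

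Each acute hypoxia library shares 4 digits of its description with 1 standard oxygen library, and what these digits stand for is not stated. The 3 pairs formed by these digits are called A, B and C. The 2 libraries of pair C stood apart from the others in level. Within a group, the SD over genes of the log2 difference between 2 libraries was 0.37 to 0.4 for A against B and 0.58 to 0.63 for comparisons with C. Lox, a collagen cross-linking oxidase, was listed at 327, 334 and 2.65 TPM in the standard oxygen libraries of pairs A, B and C, and the complement gene C1qb at 421, 421 and 21.9 TPM. The number of genes at 1 TPM or more ran from 10724 to 11186 per library, and sequencing depth is unknown because TPM keeps no record of it. The labelled cell type was checked against 10 macrophage markers, all of which had a mean of at least 1 TPM. Their summed level was 62700.8 to 70999.8 TPM in standard oxygen and 56888.6 to 75087.6 TPM in acute hypoxia, most of it from Lyz2. Mertk was lower in both libraries of pair C, at 3.37 and 2.21 TPM against 21.8 to 27.6 TPM in the other 4. No marker of dendritic, T, B, NK, mast or erythroid cells reached a mean of 1 TPM, and 1 of 6 fibroblast markers did (Thy1, 1.15 TPM). Among the 4 monocyte and 5 osteoclast markers, Ly6c2, Ccr2 and Ctsk were higher in pair C. Ly6c2 was at 243 and 194 TPM in its libraries against 42.6 to 54.6 TPM in the other 4, Ccr2 at 2.9 and 2.4 TPM against 0.333 to 0.553 TPM, and Ctsk at 33.9 and 51 TPM against 10.7 to 11.9 TPM. Acp5, the other of these markers with a mean over 1 TPM, was at 0.539 to 1.92 TPM. Summed monocyte markers ran from 45.9 to 247 TPM in standard oxygen and from 43.6 to 198 TPM in acute hypoxia, and osteoclast markers from 12.3 to 35.3 TPM and from 12.4 to 54.2 TPM. Of 10 neutrophil markers S100a8 stood at 895 to 1906 TPM and Ngp at a mean of 2.5 TPM, while S100a9 was listed at 0 in 5 of the 6 libraries and the remaining 7 were under a mean of 1 TPM. The summed neutrophil markers were 899 to 1596 TPM in standard oxygen and 941 to 1910 TPM in acute hypoxia.

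Setting the acute libraries against those of standard oxygen asks which transcripts change within the first hours of oxygen loss. Nos2, Egln3, Hilpda, Ankrd37 and Bnip3 were in the group that rose most among genes with a mean of at least 5 TPM. Genes of glucose uptake and glycolysis, of HIF control and of mitophagy were among those that rose, and the chemokine genes Ccl3 and Ccl4 were among the few that fell. A gene is said to have risen or fallen when its Benjamini-Hochberg adjusted p was under 0.05 in limma on log2(TPM + 1), with the pair as a block. All differences are acute minus standard on that scale, which understates the change of low genes. By this rule 78 of 10987 genes changed (0.71%), of which 72 rose (0.655%) and 6 fell (0.0546%). The median log2 difference was 1.19 for the risen genes, -1.15 for the fallen genes and 0.01 for all genes tested. Of all genes tested, 98.5% differed by less than 1 on this scale, which for low genes is not the same as less than 2-fold in TPM. Each of the 78 genes moved in the same direction in 3 of 3 pairs, a pattern that 20.9% of tested genes showed upward and 16.9% downward. The blocked fit selects genes whose pairs agree, so this agreement follows from the choice of genes and is not separate support. All acute libraries lay above all standard libraries in 65 of the 72 risen genes (7.63% of tested genes), and below them in 5 of the 6 fallen genes (4.85% of tested genes).

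**Figure D1:**
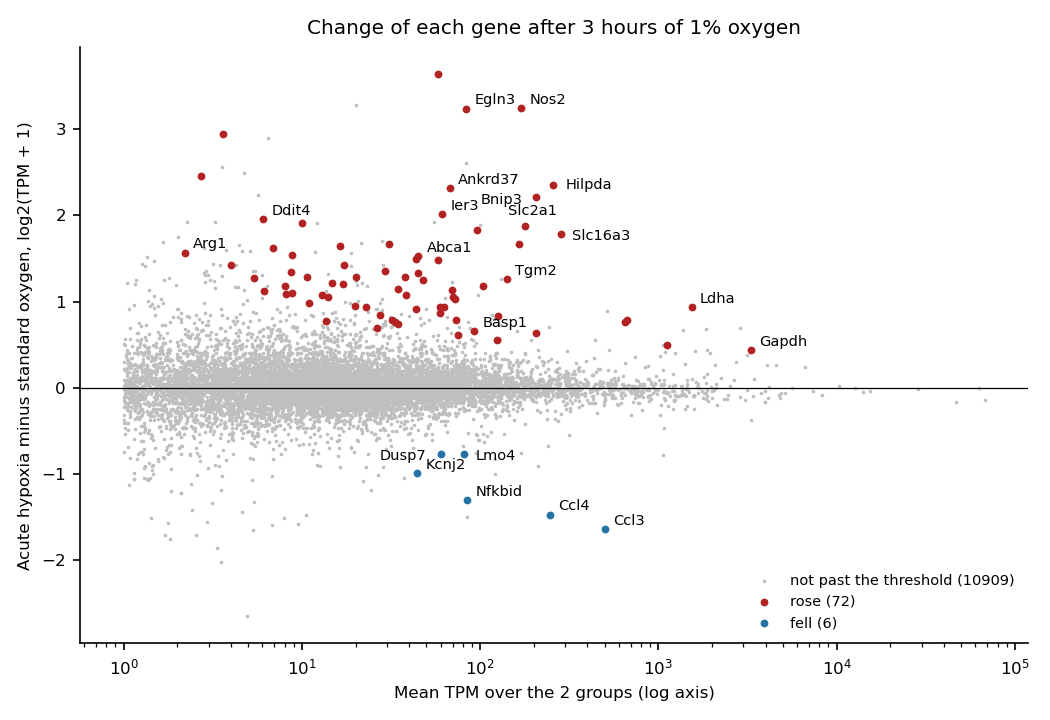
Acute minus standard difference on the log2(TPM + 1) scale (vertical axis) against the mean TPM of both groups (horizontal log axis) for the 10987 tested genes. The 72 risen genes (red) include Nos2 at 3.25 and Egln3 at 3.24, and the 6 fallen genes (blue) extend to -1.64 for Ccl3, while most genes lie close to 0.

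These calls rest on the pairing and on pairs A and B. Without the block 3 genes passed in limma (0.0273% of those tested), namely Hilpda, Mxi1 and Nfkbid. Leaving out pair A left 0 genes with an adjusted p under 0.05 (860 at an unadjusted p under 0.05), and leaving out pair B gave 4, of which 2 belong to the 78. Leaving out pair C raised the count to 273 (2.48%), of which 189 were higher (1.72%) and 84 lower (0.765%), and these included 66 of the 72 risen and all 6 fallen genes. Over all tested genes, which do not count as replicates, the log2 differences of pairs A and B correlated with r = 0.388, those of A and C with 0.093 and those of B and C with 0.083. In 57 of the 72 risen genes (79.2%) the standard library of pair C was above those of A and B, against 57.9% of all tested genes. After median-of-ratios rescaling of the libraries 24 of the 78 genes missed the threshold, with adjusted p-values of 0.0502 to 0.0656 in limma. Whether the state of the pair C cells shaped these differences was not tested. Adjusted p-values without pair C are given below for some genes that did not pass. They come from the omission that raised the count, and those without pair A or B are not given. No gene is said to have risen or fallen on such a value.

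**Figure D2:**
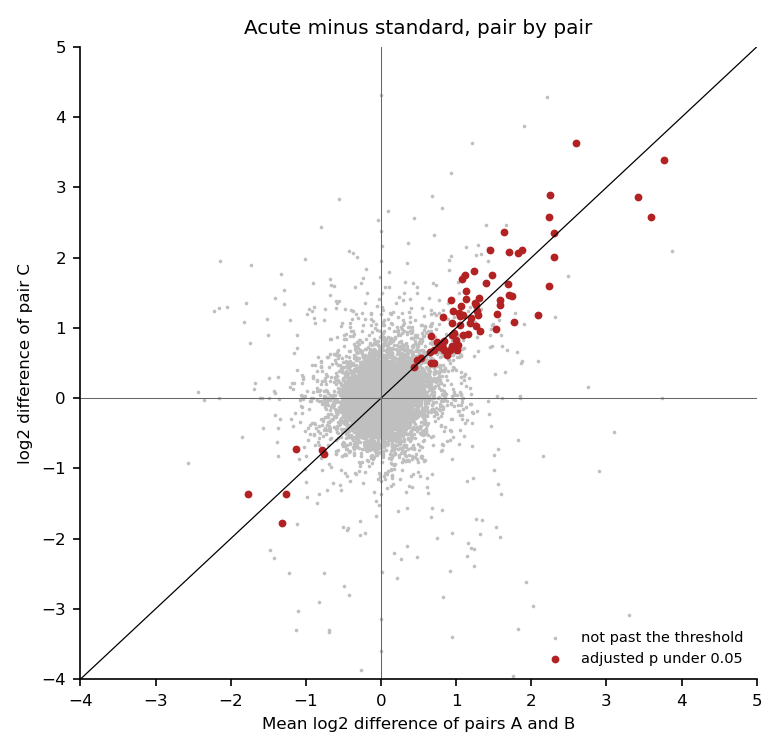
The log2 difference of pair C (vertical axis) against the mean log2 difference of pairs A and B (horizontal axis), 1 point per tested gene, with the line of equality. The called genes (red), which the blocked fit selects for agreement between pairs, include Nos2 at 2.58 in pair C below the line, and 12 genes, none of them called, fall outside the axes.

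The promoters of some risen genes are shown because they hold the ACGTG core of the HIF binding site. Sequences come from RefSeq (GRCm38.p6), whose promoter table spans 250 bases before to 50 after a transcription start. Of the 72 risen genes 54 had an entry, and 27 of these (50%) held ACGTG on either strand. The same core was present in 2583 of the 8544 tested genes with an entry (30.2%) and in 21.8% of all genes of the promoter table. A gene can have several windows and counts if any of them holds the core. Of single RefSeq promoter windows of this length 19.6% held it. The alternative core GCGTG was present in 57.4% of the risen genes with an entry and in 57.1% of tested genes. Of the 6 fallen genes 5 had an entry and 2 held ACGTG. A match describes the letters in a window and is not a measured binding site. Among the stretches below, those of Ero1l, Mxi1, Ldha and Lmo4 lie inside the annotated span of the gene, before an internal start. All stretches were chosen after the values were seen. They show the core in oxygen sensor, mitophagy, oxidase, hexokinase, lipid exporter, repressor, lactate dehydrogenase and phosphoglycerate kinase genes and in a pair of fallen genes. Each is 60 bases long, read 5′ to 3′ on the strand of the gene, with ACGTG or its reverse complement CACGT in capitals. CACGTG holds both, overlapping.
Egln3 (chr12:54204065-54204124, minus strand): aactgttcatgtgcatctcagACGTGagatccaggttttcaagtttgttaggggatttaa
Bnip3 (chr7:138909581-138909640, minus strand): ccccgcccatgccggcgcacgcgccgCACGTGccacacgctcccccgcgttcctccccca
Ero1l (chr14:45318603-45318662, minus strand): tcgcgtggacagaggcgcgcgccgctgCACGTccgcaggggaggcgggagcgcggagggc
Hk2 (chr6:82774645-82774704, minus strand): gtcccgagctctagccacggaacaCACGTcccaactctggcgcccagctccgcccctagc
Abca1 (chr4:53160009-53160068, minus strand): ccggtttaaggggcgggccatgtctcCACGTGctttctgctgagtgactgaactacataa
Mxi1 (chr19:53329320-53329379, plus strand): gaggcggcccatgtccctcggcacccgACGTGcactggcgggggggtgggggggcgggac
Ldha (chr7:46845633-46845692, plus strand): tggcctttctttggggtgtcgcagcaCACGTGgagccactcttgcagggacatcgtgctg
Pgk1 (chrX:106186923-106186982, plus strand): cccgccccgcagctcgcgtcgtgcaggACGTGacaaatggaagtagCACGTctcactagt
Kcnj2 (chr11:111066054-111066113, plus strand): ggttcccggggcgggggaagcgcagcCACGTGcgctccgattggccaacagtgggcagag
Lmo4 (chr3:144202529-144202588, minus strand): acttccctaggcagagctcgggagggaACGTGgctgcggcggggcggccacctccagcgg

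The oxygen sensors themselves were among the genes that rose. Of 12 regulators of the HIF pathway, all of them tested, 3 rose and none fell. Their median log2 difference was 0.21 against 0.01 for all genes. Over all tested genes 0.655% rose and 0.0546% fell, and each list count below is to be read beside these shares. The lists were chosen with earlier results of these data known, so their counts are not independent support. Egln3 (ENSMUSG00000035105, chr12:54178981-54203860, minus strand) encodes a prolyl hydroxylase that is itself a HIF target. It was at 9.08, 9.75 and 30.7 TPM in the standard oxygen libraries of pairs A, B and C and at 111, 110 and 231 TPM in the acute libraries. Pairs A and B were nearly equal in both groups and pair C was higher, with no overlap between the groups. The difference was 3.24 ± 0.136 (log2, limma SE), or 9.14-fold in mean TPM (limma adjusted p = 0.00814). Every ± given here is this SE. It is moderated by limma with the variance of all tested genes, so it is not the spread of the 3 pairs alone. Egln1, the main hydroxylase of HIF alpha subunits, rose from 27.5, 31.1 and 32.2 TPM to 76.9, 80.2 and 102 TPM (1.48 ± 0.0836, limma adjusted p = 0.00995). Vhl, the von Hippel-Lindau substrate receptor, rose from 9.72, 9.88 and 9.72 TPM to 17.9, 18.2 and 16.6 TPM (0.78 ± 0.0835, limma adjusted p = 0.0439). In Vhl the spread within a group was small beside the difference. The transcripts of the factors did not pass the test. Hif1a was at 37.1 to 40.6 TPM in standard oxygen and 42.7 to 54.1 TPM in acute hypoxia (0.35, limma adjusted p = 0.182). Epas1, which encodes the HIF-2 alpha subunit, had a difference of -0.27 and Arnt one of -0.15. Egln2 (0.22) and the asparaginyl hydroxylase gene Hif1an (0.05) also remained within the threshold.

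Among 14 listed angiogenic and secreted hypoxia factors 8 were tested, 2 rose, against 0.655% of all tested genes, and none fell, with a median of 1.30. Ankrd37 (ENSMUSG00000050914), an ankyrin repeat gene and known HIF target, rose from 14, 22.7 and 29.2 TPM to 86.5, 97.3 and 154 TPM (2.32 ± 0.112, limma adjusted p = 0.00871). Its exons overlap another gene over 26.4% of their length, and the counting strand is not stated. Vegfa, the main vascular growth factor, had differences of 0.85 and 0.96 in pairs A and B and 1.97 in pair C. The adjusted p of Vegfa was 0.132 with all pairs and 0.0212 without pair C in limma. Angptl4, a lipoprotein lipase inhibitor, was at 1.95 to 3.36 TPM in standard oxygen and at 5.99 to 9.1 TPM in acute hypoxia (1.35, limma adjusted p = 0.118, or 0.0297 without pair C). Adm, the adrenomedullin gene, stayed under 0.4 TPM in standard oxygen, with 2.03, 1.35 and 4.82 TPM in acute hypoxia (1.47, limma adjusted p = 0.138). In each of these 3 genes every acute library was above every standard library, as in 7.63% of all tested genes.

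Glucose uptake and glycolysis formed the list with the most called members. Of 25 tested genes 8 rose, against 0.655% of all tested genes, and none fell. In 3 of 3 pairs 18 were higher, against 20.9% of all tested genes, and the median log2 difference was 0.44. After median-of-ratios rescaling 4 of the 8 missed the threshold, namely Slc16a3 (limma adjusted p = 0.064), Hk2 (0.0654), Gapdh (0.0654) and Pgk1 (0.0531). The risen members include genes of glucose entry, of the hexokinase step and of lactate exit, and no phosphofructokinase gene was called. Slc2a1, the glucose transporter GLUT1, was at 64.3, 69.7 and 82.2 TPM in standard oxygen and at 199, 221 and 429 TPM in acute hypoxia (1.88 ± 0.166, limma adjusted p = 0.0299). Slc16a3, the lactate exporter MCT4, went from 88.4, 86.7 and 240 TPM to 365, 389 and 545 TPM (1.79 ± 0.203, limma adjusted p = 0.0489). Pair C gave the larger step in Slc2a1 and the smaller one in Slc16a3. Hk2, the inducible hexokinase, rose from 21.4, 23.5 and 27.6 TPM to 46.6, 53.6 and 94.9 TPM, again with the largest step in pair C (1.33 ± 0.149, limma adjusted p = 0.0482). Gpi1 (0.76), Pgk1 (0.50), Gapdh (0.44) and Ldha (0.94) also rose, at levels between 388 and 4834 TPM. These abundant enzymes moved by small folds with small errors. The acute and standard values of Gapdh overlapped between pairs, at 2297, 2549 and 3552 TPM against 3055, 3496 and 4834 TPM, while the differences within pairs were 0.41, 0.46 and 0.44 (limma adjusted p = 0.0384). Gapdh is uncertain, since 22.8% of its 75-base stretches occur in pseudogenes or other genes, and the one that shares most, Gm7336, was listed at 513 to 1136.9 TPM. Tpi1 (0.89, limma adjusted p = 0.0547) and Pfkl (1.08, limma adjusted p = 0.0813) missed the threshold. Without pair C their limma adjusted p-values were 0.0131 and 0.0283. Pfkfb3, which makes the activator of phosphofructokinase, was at 51.9, 53.1 and 42.5 TPM in standard oxygen and at 32.6, 35.5 and 40.9 TPM in acute hypoxia (-0.43, limma adjusted p = 0.287, or 0.0446 without pair C).

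The 3 risen genes given next are known for roles in glycogen storage and were grouped after their values were seen. Gys1, the glycogen synthase of most tissues and the eighth risen member of the list above, rose from 16, 17.7 and 34.7 TPM to 53.8, 50.8 and 88.2 TPM (1.49 ± 0.0951, limma adjusted p = 0.0117). Ppp1r3b, a subunit that brings protein phosphatase 1 to glycogen, rose from 2.77, 3.28 and 4.7 TPM to 12.8, 13.7 and 22.8 TPM (1.91 ± 0.106, limma adjusted p = 0.00993). Pgm1, a phosphoglucomutase gene, rose by 1.05 ± 0.0683 (limma adjusted p = 0.012). In all 3 genes every acute library was above every standard library, as in 65 of the 72 risen genes and in 7.63% of tested genes. Gbe1, the branching enzyme, was not called, at 31 to 55.1 TPM in standard oxygen and at 50.6 to 58.2 TPM in acute hypoxia (0.30, limma adjusted p = 0.521). Of the 8 pentose phosphate pathway genes none passed (limma), with a median of 0.04. The highest of them was H6pd, the enzyme of the endoplasmic reticulum, at 0.60 (limma adjusted p = 0.145, or 0.0263 without pair C).

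**Figure D3:**
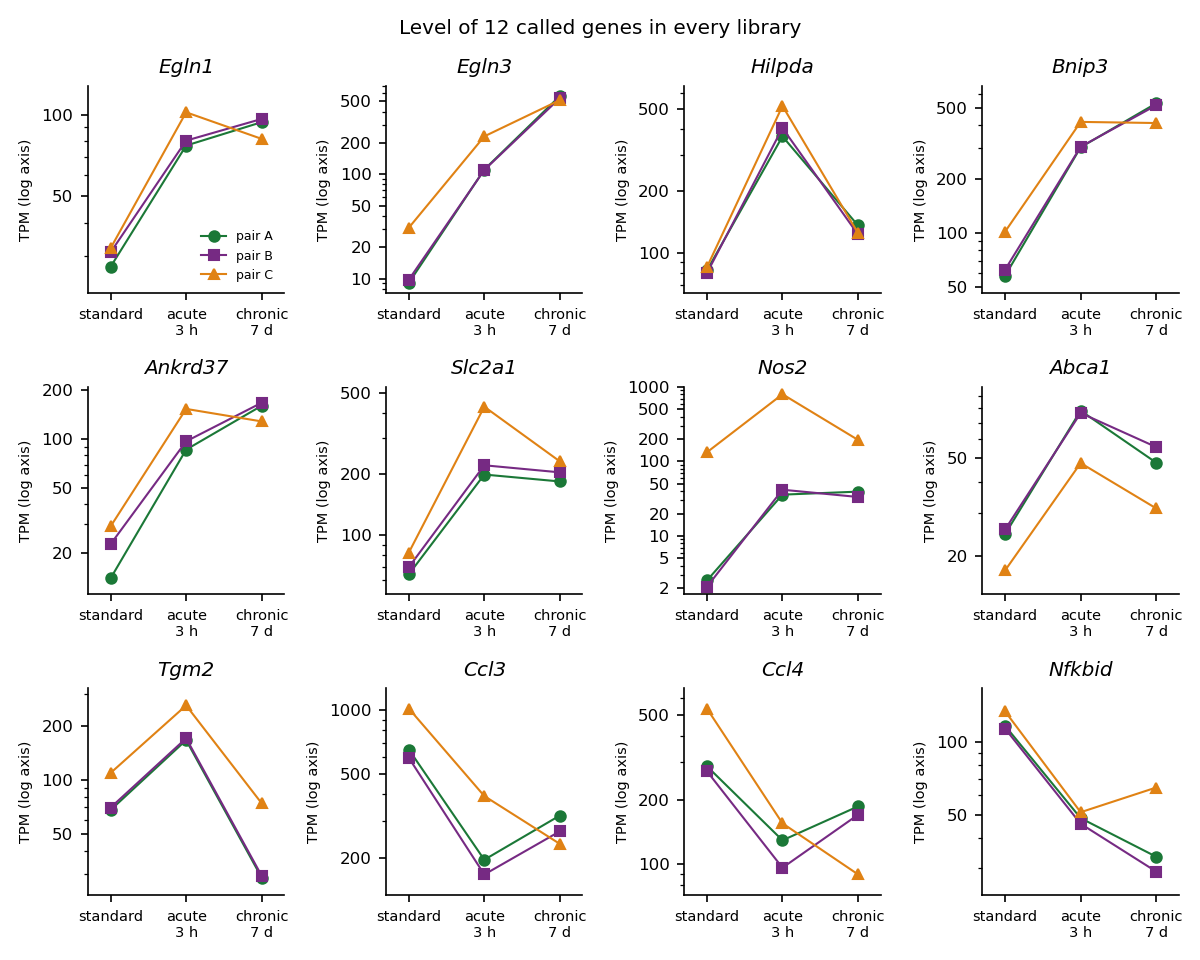
TPM on log axes of 12 called genes in the 3 standard oxygen, 3 acute hypoxia (3 h) and 3 chronic hypoxia (7 d) libraries, with lines joining libraries that share digits. Pairs A and B lie close together in most panels, and pair C lies above them in standard oxygen and acute hypoxia for Egln3 and Nos2 and below them for Abca1.

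Genes with roles in mitochondria were also among those that rose. Of 9 tested genes of the mitochondrial brake and mitophagy list 4 rose, against 0.655% of all tested genes, and none fell. The list's median was 0.34. Bnip3 (ENSMUSG00000078566, chr7:138890836-138909519, minus strand), a receptor that marks mitochondria for autophagy, was at 57.9, 62.6 and 102 TPM in standard oxygen and at 301, 303 and 417 TPM in acute hypoxia. The groups were far apart, with a difference of 2.21 ± 0.0843 (limma adjusted p = 0.00814). Pseudogenes share 15.3% of the 75-base stretches of Bnip3 with it, and the one that shares most, Gm16439, was listed at 0 in all 6 libraries. The exons of Bnip3 also overlap another gene over 22.3% of their length, those of Higd1a over 22.5% and those of Fam162a over 19.8%. The counting strand is not stated. Higd1a, which acts on the respiratory chain in hypoxia, rose by 1.08 ± 0.121, and Fam162a, a HIF-responsive mitochondrial gene, by 0.79 ± 0.0488. Pdk1, the kinase that closes pyruvate dehydrogenase, rose by 0.79 ± 0.07. The limma adjusted p-values of these 3 genes were 0.0482, 0.0117 and 0.0299. Bnip3l, the relative of Bnip3, was at 119 to 125 TPM in standard oxygen and 151 to 157 TPM in acute hypoxia (0.34, limma adjusted p = 0.111). None of the 75 nuclear genes of oxidative phosphorylation passed the test in limma, with differences from -0.27 to 0.21 and a median of 0.00. Only 0.71% of all tested genes were called, so the lack of a call in a list is not read further. None of the 13 mitochondrially encoded proteins passed either. Their median difference was 0.12 in pair A, 0.07 in pair B and -0.51 in pair C.

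Further risen genes encode enzymes that use oxygen and transcriptional repressors. Ero1l, the disulfide oxidase of the endoplasmic reticulum also called Ero1a, rose from 72, 67.6 and 88.2 TPM to 194, 192 and 383 TPM (1.67 ± 0.15, limma adjusted p = 0.0299). It was the only called member among 11 tested collagen hydroxylase and oxidase genes. P4ha2 (1.30) and P4ha1 (0.73), subunits of collagen prolyl hydroxylase, had limma adjusted p-values of 0.151 and 0.0995, and that of P4ha1 was 0.0212 without pair C. Among 20 tested JmjC genes, whose enzymes need oxygen, Jmjd6 alone passed, from 10.4, 12.8 and 16.6 TPM to 23.5, 23.7 and 32.4 TPM (0.95 ± 0.0896, limma adjusted p = 0.032). The histone demethylase genes Kdm4b (1.19) and Kdm3a (0.68) did not, at limma adjusted p-values of 0.088 and 0.0889. In both every acute library was above every standard library, as in 7.63% of all tested genes. Of 14 tested genes of the MYC and MAX network and of related repressors, 2 rose. Mxi1, an antagonist of MYC, was at 20.6, 21 and 22.2 TPM in standard oxygen and at 49.8, 47.5 and 47.6 TPM in acute hypoxia (1.15, limma adjusted p = 0.012). All 3 libraries of a group were close together. Bhlhe40, a repressor of the circadian clock, went from 20.4, 18.2 and 24 TPM to 44.4, 39.6 and 80.1 TPM (1.29 ± 0.147, limma adjusted p = 0.0494). Myc itself was at 42 to 85.3 TPM in standard oxygen and 42.4 to 96.9 TPM in acute hypoxia (0.13, limma adjusted p = 0.48).

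Of 18 tested genes of the integrated stress response and of mTOR inhibition 2 rose, against 0.655% of all tested genes, and none fell. The list's median was -0.01. Ddit4, which encodes the mTORC1 inhibitor REDD1, was at 0.982, 1.26 and 3.2 TPM in standard oxygen and at 6.34, 7.21 and 17.2 TPM in acute hypoxia (1.96 ± 0.124, limma adjusted p = 0.0117). Eif4ebp1, the repressor of cap-dependent translation, rose from 37.7, 41 and 42.2 TPM to 65.8, 76 and 94.9 TPM (0.94 ± 0.0935, limma adjusted p = 0.0379). Both are also known targets of ATF4. Atf4, the central factor of the response, had a difference of -0.09, its partner Ddit3 (CHOP) one of -0.28, and Asns, an ATF4 target, one of -0.09. Sesn2, another mTORC1 inhibitor, was at 9.19 to 14.2 TPM in standard oxygen and at 18.1 to 21.4 TPM in acute hypoxia (0.78, limma adjusted p = 0.0735, or 0.0387 without pair C).

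Immediate early and AP-1 genes had a median difference of 0.64 over 19 tested members. Of these 3 rose, against 0.655% of all tested genes, and none fell. Ier3, an early response gene linked to cell survival, rose from 16.3, 15.2 and 44 TPM to 77.2, 77.9 and 135 TPM (2.02 ± 0.152, limma adjusted p = 0.0175). Jun rose from 45, 51.6 and 43.9 TPM to 101, 108 and 82.9 TPM (1.03 ± 0.0754, limma adjusted p = 0.0166). Its partner Fosl1 rose by 1.43 ± 0.152 (limma adjusted p = 0.0439), but 56.9% of its 75-base stretches also occur in Ccdc85b, which overlaps it and was at 47.2 to 66.2 TPM in standard oxygen and 56.2 to 78.1 TPM in acute hypoxia. The list's median was 0.83 in pair A, 0.75 in pair B and 0.25 in pair C. Fos was at 48.1 and 58.6 TPM in the standard libraries of pairs A and B and at 130 and 120 TPM in their acute libraries, but at 95.5 and then 74.7 TPM in pair C. Klf2, a factor known to restrain inflammatory activation, showed the same split, with differences of 1.47, 1.62 and 0.03. Without pair C 8 members of the list were higher at an adjusted p under 0.05 in limma, against 1.72% of all tested genes. Among them were Fos (0.0367), Klf2 (0.0176) and Dusp1 (0.0333). Pair C, left out here, was the pair that departed from A and B, so these values are not read as support. Over all tested genes 0 passed in limma without pair A and 4 without pair B.

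Chemokine genes supplied the largest falls. Ccl3 (ENSMUSG00000000982, chr11:83647844-83649355, minus strand), which encodes the chemoattractant MIP-1 alpha, was at 650, 594 and 1015 TPM in standard oxygen and at 196, 167 and 392 TPM in acute hypoxia. Every acute value was below every standard value, and the difference was -1.64 ± 0.101 (limma adjusted p = 0.0117). Its neighbour Ccl4 (chr11:83662584-83664683, plus strand), which encodes MIP-1 beta, went from 287, 272 and 535 TPM to 129, 95.9 and 155 TPM (-1.47 ± 0.129, limma adjusted p = 0.0299). Tnf was at 122, 118 and 256 TPM in standard oxygen and at 67.8, 66.8 and 98.2 TPM in acute hypoxia. This difference of -1.0 had a limma adjusted p of 0.0665, or 0.0212 without pair C. Of 20 tested inflammatory mediators 2 fell and 1 rose, and the median was 0.02. Other chemokine genes did not pass the test. Ccl2 (-0.02), Ccl6 (0.00), Ccl7 (0.05) and Ccl9 (0.12) were among them, and Il1b, Il6 and Il12b were below the filter of 1 TPM.

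Nos2 (ENSMUSG00000020826, chr11:78920787-78960254, plus strand), the inducible nitric oxide synthase, was the mediator that rose. It was at 2.53, 2.08 and 133 TPM in standard oxygen and at 35.9, 41.8 and 800 TPM in acute hypoxia. The standard library of pair C was above the acute libraries of pairs A and B, so the groups overlapped, while each pair rose, by 3.39, 3.79 and 2.58. The mean difference was 3.25 ± 0.238 (limma adjusted p = 0.0166), and without the block the adjusted p was 0.858. Arg1, whose arginase competes with this enzyme for arginine, was also called. It remained low in acute hypoxia, at 3.48, 3.59 and 4.34 TPM against 0.713, 0.535 and 0.582 TPM in standard oxygen (1.57 ± 0.167, limma adjusted p = 0.0439, or 0.0538 without pair C).

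Of 20 NF-kappaB subunits and regulators 1 passed. Nfkbid, an atypical nuclear inhibitor of the family, fell from 116, 113 and 133 TPM to 48.3, 45.8 and 51.1 TPM, a similar step in each pair. Nfkb1 (-0.09), Rela (-0.02) and Rel (-0.04) did not pass. Nfkbia, the classical inhibitor, was higher in pairs A and B (0.72 and 0.54) and lower in pair C (-0.35), where its standard value of 285 TPM stood above the 76.3 and 71.1 TPM of the other pairs. The 3 further genes that fell were Kcnj2, an inward-rectifier potassium channel (-0.99 ± 0.11), the transcriptional adaptor gene Lmo4 (-0.77 ± 0.0602) and the ERK phosphatase gene Dusp7 (-0.77 ± 0.07). Their limma adjusted p-values were 0.0474, 0.0204 and 0.0299. Lmo4 went from 94.5, 93.8 and 117 TPM to 54.4, 53.8 and 70.1 TPM without overlap. Dusp7 overlapped between the groups, because its standard value in pair C (52.5 TPM) was below the acute value of pair A (53.4 TPM).

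Interferon-stimulated genes differed in sign between the pairs. None of the 24 tested members passed in limma, and the list's median was -0.13. By pair the median was 0.25 in A, -0.04 in B and -0.77 in C. Isg15 was at 4.29, 8.65 and 35.8 TPM in standard oxygen and at 5.73, 7.7 and 16.9 TPM in acute hypoxia. All 24 members were higher in the standard library of pair C than in those of A and B, as Ifit1 was at 18.2 TPM against 0.636 and 1.54 TPM. Whether this starting level bears on the pair C difference was not tested.

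**Figure D4:**
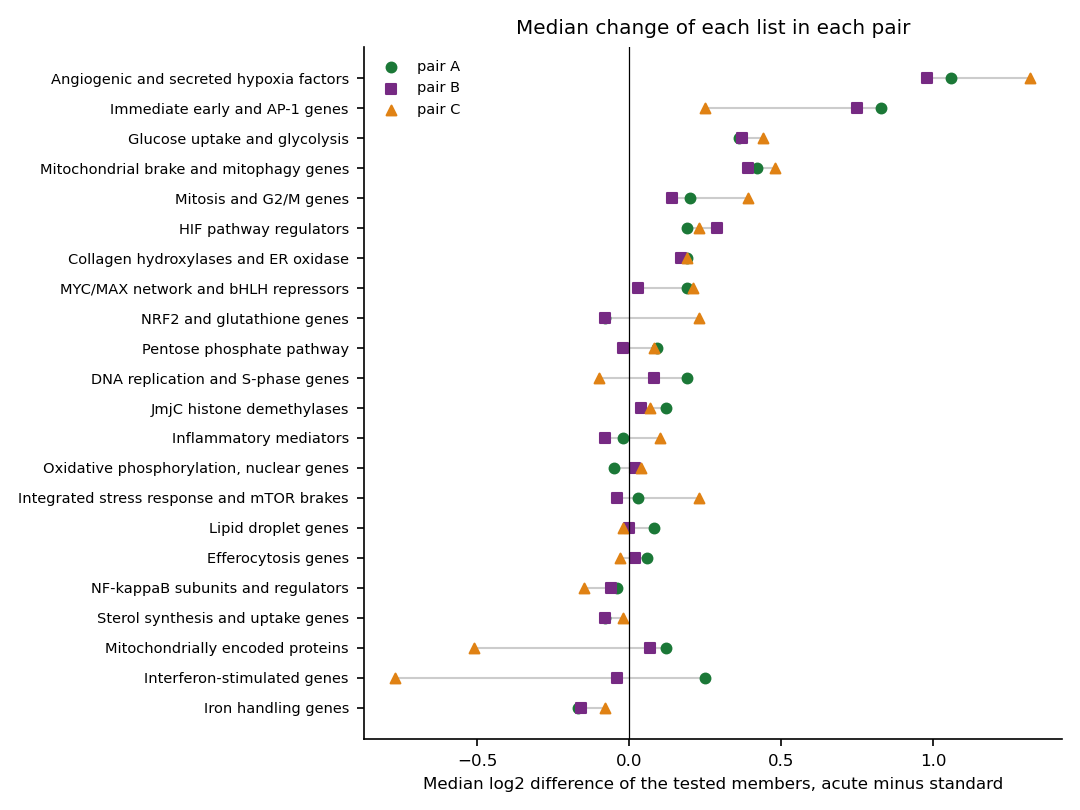
Median log2 difference, acute minus standard, of the tested members of 22 gene lists in pairs A (circles), B (squares) and C (triangles). Pair C departs from A and B mainly in interferon-stimulated genes (-0.77), mitochondrially encoded proteins (-0.51) and immediate early genes (0.25).

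Hilpda, an inhibitor of triglyceride lipolysis on lipid droplets, was the only called member of 13 tested lipid droplet genes, whose median was -0.01. Plin2, the main droplet coat protein of macrophages, was at 1312, 1312 and 1669 TPM in standard oxygen and at 2417, 2374 and 2071 TPM in acute hypoxia (0.68, limma adjusted p = 0.132, or 0.0131 without pair C). Scd2, a stearoyl-CoA desaturase that belongs to none of the lists, rose from 36.7, 37.6 and 48.5 TPM to 124, 122 and 207 TPM (1.83 ± 0.0988, limma adjusted p = 0.00927). Abca1 (ENSMUSG00000015243, chr4:53030787-53159895, minus strand), which exports cholesterol and also belongs to the efferocytosis list, rose from 24.5, 25.6 and 17.4 TPM to 78.3, 76.6 and 47.8 TPM (1.53 ± 0.0785, limma adjusted p = 0.00871). The small GTPase gene Arl4c, also in none of the lists, rose by 1.35 ± 0.136. In Abca1 and Arl4c pair C lay below the other pairs in both groups, the opposite of most risen genes. Of 22 tested genes of sterol synthesis and uptake none passed in limma, and their median was -0.05. Sqle, the squalene epoxidase, had the highest difference there, at 0.73 (limma adjusted p = 0.088, or 0.0469 without pair C).

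Efferocytosis genes included 2 that rose among 23 tested, against 0.655% of all tested genes, with a list median of -0.03. Beside Abca1 this was Tgm2, the transglutaminase that helps macrophages bind dying cells, at 67.8, 69.9 and 109 TPM in standard oxygen and 166, 170 and 259 TPM in acute hypoxia. The 3 pairs gave almost the same step, 1.28, 1.27 and 1.24 (1.26 ± 0.0561, limma adjusted p = 0.00857). The exons of Tgm2 overlap another gene over 21.8% of their length. The receptors and bridging genes did not pass, with Itgav at 0.44, Lrp1 at 0.43, Stab1 at 0.18, Gas6 at -0.19 and Itgb3 at -0.43. Cx3cr1, the fractalkine receptor, was at 4.74, 3.74 and 57.6 TPM in standard oxygen and at 13.7, 12.5 and 49.1 TPM in acute hypoxia, higher in pairs A and B and lower in pair C (0.88, limma adjusted p = 0.375, or 0.029 without pair C). In a bulk sample, fewer cells of one kind and less RNA per cell cannot be told apart, which applies to every level given here.

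The lists of iron handling, of NRF2 and glutathione, of DNA replication and of mitosis had no called member in limma. Among 10 iron handling genes Tfrc, the transferrin receptor, was at 169, 166 and 127 TPM in standard oxygen and at 110, 105 and 54.1 TPM in acute hypoxia (-0.83, limma adjusted p = 0.0944, or 0.0244 without pair C). Its acute values were all below its standard values, as in 4.85% of all tested genes. Among 18 NRF2 and glutathione genes Hmox1, the heme oxygenase, had the highest difference, 0.70, and stood at 1701 to 2479 TPM in standard oxygen and 3401 to 3637 TPM in acute hypoxia (limma adjusted p = 0.103, or 0.0212 without pair C). Nfe2l2, which encodes NRF2 itself, was at 105 to 115 TPM and then at 70.9 to 87.1 TPM (-0.54, limma adjusted p = 0.0771). None of 26 DNA replication genes passed in limma (median 0.04) and none of 25 mitosis genes did (median 0.24). Of the mitosis genes 17 were higher in 3 of 3 pairs, against 20.9% of all genes tested. All 25 were higher in pair C than in pairs A and B in both groups, as was Mki67 at 4.81, 4.68 and 10.4 TPM in standard oxygen and 6.37, 6.16 and 14.3 TPM in acute hypoxia. Cdkn1b, the cell cycle inhibitor p27, which is in none of the lists, rose from 8.17, 8.45 and 8.52 TPM to 18.7, 20.1 and 24.3 TPM (1.22 ± 0.101, limma adjusted p = 0.0253).

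**Figure D5:**
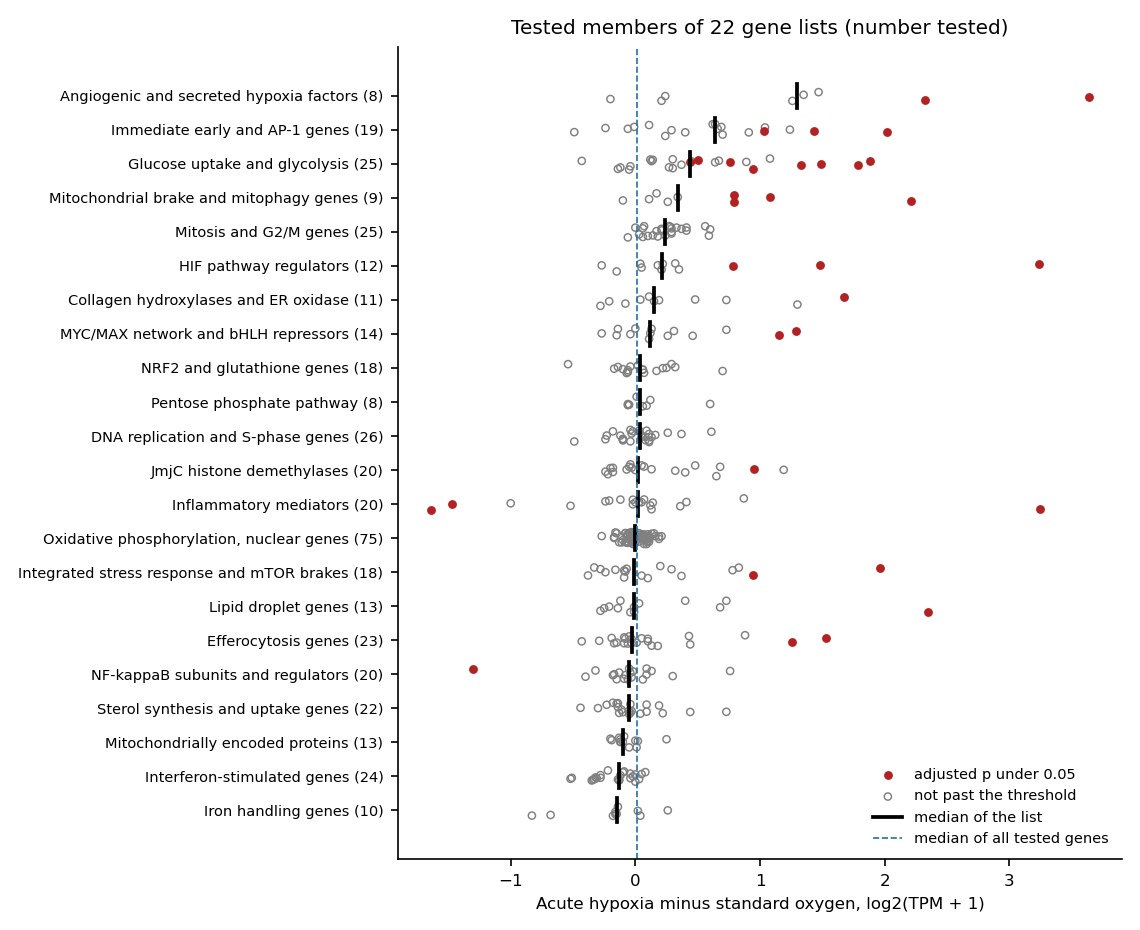
Acute minus standard difference on the log2(TPM + 1) scale for each tested member of 22 gene lists, with filled points for genes at an adjusted p under 0.05, a bar for the list's median and a dashed line for the median of all tested genes. The highest median, 1.30, belongs to the angiogenic and secreted factors, and the 75 nuclear genes of oxidative phosphorylation lie between -0.27 and 0.21.

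Of the 78 called genes 45 belonged to none of the 22 lists, and those not yet described are grouped here by known role, after their values were seen. Surface receptors included Gpr35, from 2.69, 2.57 and 7.44 TPM to 11.7, 11.2 and 17 TPM (1.54 ± 0.173, limma adjusted p = 0.0482), the interleukin-4 receptor chain Il4ra (0.94), the niacin receptor Hcar2 (0.79), the hyaluronan receptor Cd44 (0.64), Gpr141 (0.99), Igsf6 (0.87) and Cd300lf (0.83). Cd44 was at 156, 163 and 166 TPM in standard oxygen and at 258, 262 and 236 TPM in acute hypoxia, so pair C had the smallest step. Nt5e, the ectoenzyme CD73 that makes adenosine, rose from 0.816, 0.919 and 3.66 TPM to 4.39, 4.46 and 9.72 TPM (1.43 ± 0.145, limma adjusted p = 0.0385). Of single enzymes of polyamine metabolism, Smox, the spermine oxidase, rose by 1.25 ± 0.0724 and Odc1, the ornithine decarboxylase, by 0.55 ± 0.0591, with 30.5% of the stretches of Odc1 shared with pseudogenes. The spermidine synthase gene Srm, on the synthesis side with Odc1, differed by -0.18, 0.09 and -0.19 in pairs A, B and C and was not called. Regulators of small GTPases were Spata13, an exchange factor (1.64 ± 0.104), and Fam13a, a protein with a GTPase-activating domain (1.62 ± 0.119). Transcription and chromatin genes comprised Ets1 (1.18), Rest (1.08), Dnmt3l (1.09) and Tsc22d3 (0.70), the last a glucocorticoid-induced gene. Alkbh5, an oxygen-dependent RNA demethylase, rose from 25.3, 27.6 and 24.4 TPM to 40.8, 44.4 and 45.8 TPM (0.74 ± 0.0811, limma adjusted p = 0.0462).

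The remaining called genes covered several functions. Rgcc, a regulator of the cell cycle, rose from 9.67, 9.38 and 23.9 TPM to 37.1, 29.4 and 75.5 TPM (1.67 ± 0.0895, limma adjusted p = 0.00927). Cytoskeletal and adhesion genes were Tubb6 (1.14), the kinesin gene Kif21b (1.29), Bcar1 (1.27), Frmd6 (1.12) and Basp1 (0.66). Basp1 overlapped between the groups, at 98.3, 111 and 5.34 TPM in standard oxygen and at 154, 176 and 9.01 TPM in acute hypoxia. Its pair C level was far below the others in both groups, yet the differences were 0.64, 0.66 and 0.66. Metabolic genes were Mthfd1l of mitochondrial folate metabolism (1.05), Isca1 of iron-sulfur cluster assembly (0.76), the O-GlcNAcase gene Mgea5 (0.84) and the magnesium transporter gene Slc41a2 (0.94). Isca1 was tight in both groups, at 24, 23.8 and 25.4 TPM against 42, 41.7 and 42.6 TPM. The others were Tmem119 (1.18), Spsb4 (1.34), Pitpnc1 (1.10), Prelid2 (1.29), Tlcd2 (0.91), Lrrfip1 (0.61) and C130050O18Rik (1.20). Finally, 2 processed pseudogenes were called, Gm13597 and Gm7367. Gm13597 was listed at 0 in the 3 standard libraries and at 5.74, 4.47 and 11.4 TPM in the acute libraries, and 76.7% of its 75-base stretches occur in Tax1bp3, which was at 14 to 16.5 TPM in standard oxygen and 10.6 to 18.2 TPM in acute hypoxia. Gm7367 shares 86.4% with Ubald2. For such genes, and for Pgk1, which shares 67.5% of its stretches and whose pseudogene Pgk1-rs7 ranged from 0.235 to 132 TPM between libraries, the division of reads between copies is uncertain. At least 5% of the stretches were also shared by Fam162a, Frmd6, Higd1a, Gys1 and Ldha, at 14.6, 12.6, 6.07, 5.99 and 5.23%. Overlap of exons with another gene was 14.5% in Spsb4, 13.6% in Pgm1, 11.5% in Gpi1, 11.4% in C130050O18Rik and 10.6% in Tlcd2.

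Some genes differed by at least 1 on the log2(TPM + 1) scale in every pair without passing the test. A log2 difference of at least 1 in each of the 3 pairs was found for 50 genes upward (0.455%), of which 39 were called and 11 were not, and for 4 genes downward (0.0364%), of which 3 were called. Ak4, a mitochondrial adenylate kinase, was the highest of those not called, at 0.857, 1.01 and 11.4 TPM in standard oxygen and 26, 28.8 and 52.1 TPM in acute hypoxia. Its pairs disagreed in size, 3.86, 3.89 and 2.09, and the limma adjusted p of its difference of 3.28 ± 0.389 was 0.0547, or 0.00972 without pair C. The other 10 upward genes, named after their values were seen, were Cytip (2.24), Pmepa1 (1.93), Lbhd1 (1.62), Nfil3 (1.59), Gpat3 (1.58), Mgarp (1.52), Adm, Arrdc3 (1.42), Kcna3 (1.33) and Rgs11 (1.31). Cytip, a cytohesin-binding regulator of leukocyte adhesion, was at 2.3, 0.91 and 0.52 TPM in standard oxygen and at 12.3, 14.1 and 4.08 TPM in acute hypoxia (limma adjusted p = 0.0552). The downward gene that was not called was Gm29394 (-1.71), whose exons overlap another gene over 77% of their length. A mean difference of at least 1 on that scale, in either direction, was reached by 166 genes, and 115 of them were not called.

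Libraries of chronic hypoxia (7 days in 1% oxygen) give the level of the early genes at a later time. They share the standard oxygen libraries with the comparison above, so their values are set beside it as a description, with no test. The 72 risen genes were chosen for high acute values. In 6 of the 72 every chronic library was above every acute library, namely Egln3, Arg1, Pdk1, Pgk1, Gpr141 and Prelid2, against 22% of all tested genes. In 20 every chronic library was below every acute library, against 5.72% of all tested genes, and in 46 they overlapped. Because of the choice of genes these counts are not read further. Egln3 was at 562, 537 and 514 TPM in chronic hypoxia, and there the 3 pairs were close together. Arg1 was at 130, 141 and 176 TPM. Hilpda, at 136, 123 and 125 TPM, lay between its standard oxygen values (79.9 to 85.4 TPM) and its acute values (368 to 517 TPM), and Tgm2, at 28.5, 29.2 and 73.9 TPM, was below its standard oxygen value in each pair. Among the fallen genes, Lmo4 (95.8, 88.1 and 119 TPM) and Dusp7 (91.2, 92.9 and 54.8 TPM) were near their standard oxygen levels, while Ccl3 (317, 267 and 233 TPM) was below them.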

How the data were processed

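The authors deposited TPM per Ensembl gene in 3 tables of 6 samples, and each sample held identical values in the 2 tables that contain it. STAR, featureCounts, FastQC and GRCm38 are named in the submitters' processing notes, while the annotation, the strand setting and the step from counts to TPM are not given in the sources used here. Libraries were TruSeq mRNA, sequenced as 75-base paired ends, per the labels' protocols. Genes with a mean of at least 1 TPM over the 6 libraries were fitted with limma 3.58.1 in R 4.3.3 (lmFit, eBayes with trend, two-sided) on log2(TPM + 1), with the pair as a block and Benjamini-Hochberg adjustment over all 10987 genes. The fitting code was tested on simulated data. Depth is unknown, so no counting error or count test was used. The series text calls the samples biological replicates, but the labels do not say whether they came from separate animals or cultures. With the pair as a block, p-values measure only how the differences within the 3 pairs scatter, moderated by limma. That scatter may be technical.

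Pairs were taken from digits shared in the descriptions. Deviations from the group means correlated between the 2 libraries of a pair with r = 0.395 (A), 0.375 (B) and 0.535 (C), across genes. The title numbers give another pairing, with r = 0.395, -0.465 and -0.282. Deviations within a group cancel out, so positive r in the digit pairs goes with negative r among the crossed combinations. The values of the 2 pairings are therefore not independent. The genes described individually were the 20 highest and up to 10 lowest called genes with a mean of at least 5 TPM and 1 direction in all pairs, every called member of a list, and a few members that did not pass, beside those said to be chosen later. Some of these genes are not reported here. The members and the 22 lists were chosen with earlier results of these data known. Symbols, coordinates and transcripts came from GENCODE M21 on GRCm38. A gene was called uncertain where at least 5% of its 75-base stretches occur in another listed gene. Alternatives covered the block, pseudocount, filter, moderation, scaling, number of samples fitted and each pair left out.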

Additional observations from a re-analysis of the deposited data

How the results depend on the processing

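The count of 78 called genes depended on the pairing. It was 3 with no replicate block (785 at an unadjusted p under 0.05) and 0 with the title number as a replicate block (579). Leaving out 1 pair gave 0 (without A), 4 (without B, 2 of them among the 78) and 273 (without C), with fewer samples fitted. It was also 0 with no filter on low values (19514 genes tested, 1736 at an unadjusted p under 0.05), 22 for eBayes without the trend and 205 with all 9 samples in 1 fit. The cause was not tested. Pseudocounts of 0.1 and 5 gave 76 and 75 genes, robust eBayes 78, a minimum mean of 5 TPM 103, median-of-ratios rescaling 54 and quantile normalization 63. Of the 78 genes, 74 and 69 were shared under these pseudocounts, 74 under the stricter filter, 54 and 62 under the scalings, 70 with all 9 samples and 72 without pair C. After median-of-ratios rescaling the called members went from 8 to 4 in glycolysis, from 4 to 3 in the mitochondrial brake list, from 3 to 2 in HIF regulators and immediate early genes, and from 2 to 1 in the stress response and MYC lists. No called gene changed sign under any of these alternatives. Low genes are limited by the unknown depth and by the pseudocount, as for Ddit4, at 2.46 with 0.1 and 1.11 with 5.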
